A study of Homo sapiens with 12 samples.

Results

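The endoplasmic reticulum (ER) folding genes, the genes of ER-associated degradation (ERAD) and the sensors of the unfolded protein response (UPR) were followed in HK-2, a human cell line immortalized from the epithelium of the renal proximal tubule. The module held 43 genes, taken as a named list, and each was read from the probe set annotated to its symbol with the highest mean over 12 Affymetrix arrays. Of the 43 genes, 40 had a probe set annotated to 1 symbol, and 39 passed a filter that asked for a log2 value above 4 on at least 3 of the 12 arrays. The 39 stood among 10665 genes tested in all. The other genes were PDIA5, TXNDC5 and SYVN1, 3 genes found only on probe sets that carry several symbols and not read here, and DERL3, which failed the filter. Cells received Kbr at a dose the labels call low for 24 h or for 48 h, or the control vehicle for 24 h or for 48 h, with 3 biological replicates in each of the 4 groups. All groups were cultures of this 1 line in the same medium, treated near confluence, and the labels name no allele and no second agent. What Kbr stands for and its concentration are not stated in the labels.

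The ER lumen is where secreted and membrane proteins fold with the help of chaperones, co-chaperones and disulfide-forming enzymes, and ERAD returns proteins that fail to fold to the cytosol for proteasomal breakdown. When unfolded proteins build up, the membrane sensors ERN1 (IRE1), EIF2AK3 (PERK) and ATF6 start the UPR: IRE1 splices the mRNA of the transcription factor XBP1, PERK slows translation, and ATF6 is cut in the Golgi to release a transcription factor. Spliced XBP1 and cleaved ATF6 are known to switch on most of the chaperone and ERAD genes, in part through promoter elements named ERSE and ERSE-II. Kidney tubule cells carry a high load of membrane and secreted proteins, and this response is often studied in them after toxic exposure.

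The array medians lay between 2.909 and 2.992 on the log2 scale, and arrays of the same group correlated at r = 0.982 to 0.9928 across genes. Precision is limited by there being 3 arrays a group. Of the proximal tubule markers, 9 of 10, among them LRP2, CUBN and AQP1, lay below log2 4 on all 12 arrays and PAX8 lay above it, while 5 of 5 epithelial markers lay above it on all arrays. All endothelial (4 of 4) and leukocyte (4 of 4) markers and 4 of 5 fibroblast markers lay below log2 4 on all arrays. The fifth, COL1A1, averaged 6.10 in Kbr cells and 8.16 in control cells at 48 h, and the summed fibroblast markers lay at 16.707 to 17.257 and 19.027 to 19.252 in the same groups. The summed epithelial markers lay at 53.02 to 55.329 in Kbr cells and 56.331 to 58.748 in control cells at 48 h. At 24 h these sums were 52.757 to 55.945 and 57.295 to 58.686. At 48 h CDH1 averaged 5.82 under Kbr and 7.32 in controls, and KRT18 alone went the other way, at 13.02 and 12.66. The part of these marker shifts in the results was not tested.

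The promoters of the module are shown first because they carry the letters through which several of these genes are known to be regulated. RefSeq promoter entries (build GRCh38.p14, 300 bases each, with 250 before the annotated start and 50 from its first base on) were found for 38 of the 43 genes. Entries were not matched for DNAJC1, PDIA3, DERL1, DERL3 and SEC24D. ERSE was searched as CCAAT and CCACG with 9 bases of any kind between them, and ERSE-II as ATTGG and CCACG with 1 base of any kind between them, on both strands. They share the last 5 letters, and no promoter of the module matched both. Below, the 4 promoters are those of a chaperone, a co-chaperone, an ERAD gene and a sensor-pathway gene with large changes at 48 h. Capitals mark the motif match as read on the gene's own strand, 5′ to 3′.

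HSPA5 promoter, chr9:125241294-125241593, minus strand, ERSE in capitals: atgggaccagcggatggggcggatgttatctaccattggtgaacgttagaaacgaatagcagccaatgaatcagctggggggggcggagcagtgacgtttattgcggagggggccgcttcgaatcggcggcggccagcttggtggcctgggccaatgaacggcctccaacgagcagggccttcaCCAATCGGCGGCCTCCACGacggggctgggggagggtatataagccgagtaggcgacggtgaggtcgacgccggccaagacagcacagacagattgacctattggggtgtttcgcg

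SDF2L1 promoter, chr22:21642052-21642351, plus strand, ERSE-II (reverse orientation) in capitals: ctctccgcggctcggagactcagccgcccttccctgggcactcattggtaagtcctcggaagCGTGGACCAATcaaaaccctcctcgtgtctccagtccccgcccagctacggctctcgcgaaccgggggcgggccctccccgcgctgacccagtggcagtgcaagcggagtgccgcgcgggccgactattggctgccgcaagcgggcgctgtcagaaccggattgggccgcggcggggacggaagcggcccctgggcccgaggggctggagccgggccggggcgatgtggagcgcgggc

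HERPUD1 promoter, chr16:56931892-56932191, plus strand, ERSE-II in capitals: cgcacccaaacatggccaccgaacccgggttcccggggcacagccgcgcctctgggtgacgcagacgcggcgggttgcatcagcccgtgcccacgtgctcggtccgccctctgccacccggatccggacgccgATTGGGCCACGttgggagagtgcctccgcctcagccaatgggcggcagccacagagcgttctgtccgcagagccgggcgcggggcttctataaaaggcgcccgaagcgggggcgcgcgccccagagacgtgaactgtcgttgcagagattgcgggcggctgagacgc

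XBP1 promoter, chr22:28800520-28800819, minus strand, ERSE in capitals: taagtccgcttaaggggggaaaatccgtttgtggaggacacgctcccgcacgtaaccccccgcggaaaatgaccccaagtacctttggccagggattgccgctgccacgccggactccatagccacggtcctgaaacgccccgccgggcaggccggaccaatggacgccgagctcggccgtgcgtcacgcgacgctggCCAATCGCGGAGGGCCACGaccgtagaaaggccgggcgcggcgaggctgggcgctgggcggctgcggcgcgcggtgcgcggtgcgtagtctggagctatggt

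The other matches are printed as the matched letters only, on the gene's own strand, to let their spacers be compared with those above.
HSP90B1, ERSE, chr12:103930216-103930234: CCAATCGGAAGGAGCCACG
HSP90B1, ERSE in reverse orientation, chr12:103930321-103930339: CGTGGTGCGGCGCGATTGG
CANX, ERSE, chr5:179698778-179698796: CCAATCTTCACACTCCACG
CRELD2, ERSE in reverse orientation, chr22:49918554-49918572: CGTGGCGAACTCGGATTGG
CALR, ERSE in reverse orientation, chr19:12938384-12938402: CGTGGTCGACCATCATTGG
ERO1B, ERSE in reverse orientation, chr1:236282183-236282201: CGTGGTCCCGCCTCATTGG
HYOU1, ERSE-II in reverse orientation, the same letters at chr11:119057380-119057390 and at chr11:119057274-119057284: CGTGGTCCAAT

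ERSE was found in 7 of the 38 promoters (18.4%), against 22 of the 27305 promoters of the table (0.0806%). ERSE-II was found in 3 of 38 (7.89%), against 15 of 27305 (0.0549%). Either motif stood in 10 of the 38 (26.3%), against 0.136% of all promoters and 24 of the 8852 promoters of tested genes (0.271%). Among the members that rose at 48 h, described below, 8 of 20 promoters (40%) held a match, and among the tested members that did not rise 2 of 15 (13.3%) did, those of CALR and ERO1B. Several members are known to be regulated through these elements. The excess over all promoters therefore follows from the choice of genes and is not a result of these arrays. No test was made of the shares of members that rose and did not rise. A match describes letters within a window of 300 bases and is not evidence of binding. A promoter without one says only that these letters were absent from that window.

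**Figure D1:**
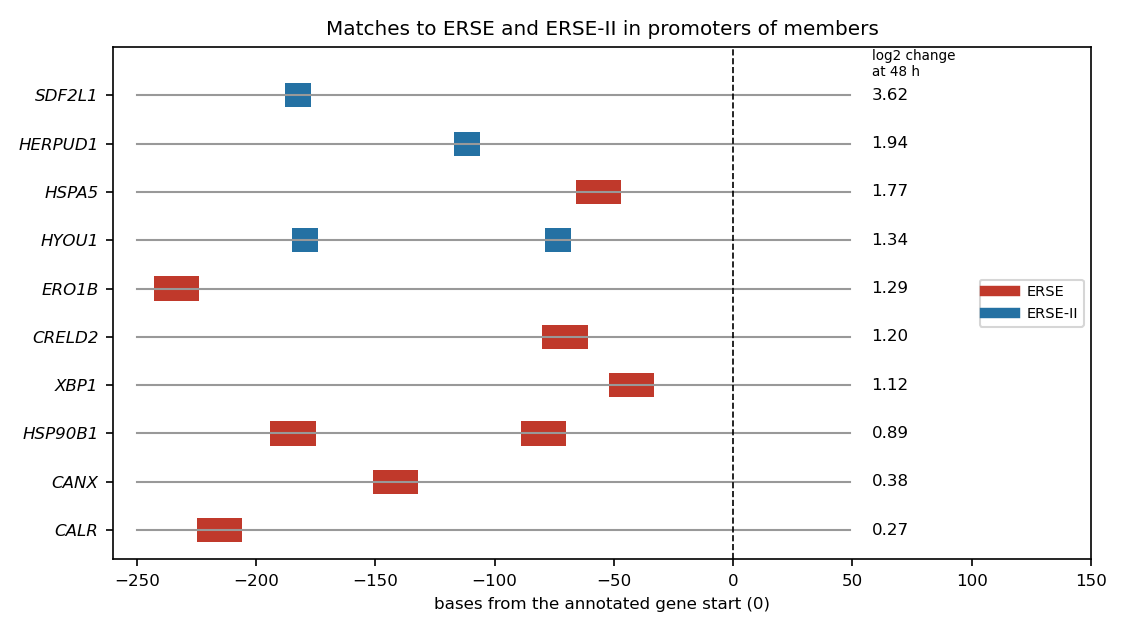
Positions of ERSE (red) and ERSE-II (blue) matches in the 300-base promoter windows of the 10 members that held one, in bases from the annotated start (0, dashed line), with genes ordered by their log2 change, Kbr minus control, at 48 h (numbers on the right). Matches lay between base -243 in ERO1B and base -34 in XBP1, and HYOU1 and HSP90B1 held 2 each.

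At 48 h most of the ER chaperone, co-chaperone and ERAD transcripts that changed were higher in Kbr cells than in vehicle cells. Of the 39 members tested, 20 rose (51.3%), where 22% of all tested genes rose, and 2 fell, where 20.8% of all tested genes fell (limma, adjusted p under 0.05 over all genes tested). The remaining 17 did not pass the test. A rise of at least 2-fold was seen in 13 members, against 3.86% of all tested genes, and a fall of at least 2-fold in 0, against 6.08%. The median log2 change was 0.68 over the members and -0.0038 over all tested genes, and 33 of the 39 changes were above 0. The members were chosen with earlier results of these data known, so their excess over all genes is a description and not an independent test. The 3 Kbr arrays lay above all 3 control arrays in 16 members (26% of all genes) and below them in 2 (24.9% of all genes). The arrays measured whole cultures, so a shift in every cell and a larger shift in a share of the cells, or fewer cells and less RNA per cell, cannot be told apart. With 3 arrays against 3, an exact test of a single gene could not go below p = 0.1. All tests below are those of limma fitted across genes. Each SE below comes from a spread shared by all 4 groups. It does not show a wider spread among the Kbr arrays at 48 h where there was one. With only the 48 h groups fitted, 10 members rose and 0 fell, beside 16.7% and 16.8% of all genes. Those 10 were HSPA5, SDF2L1, DNAJB11, TXNDC11, ERO1A, HERPUD1, DERL2, SELENOS, EIF2AK3 and SEC61A1.

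**Figure D2:**
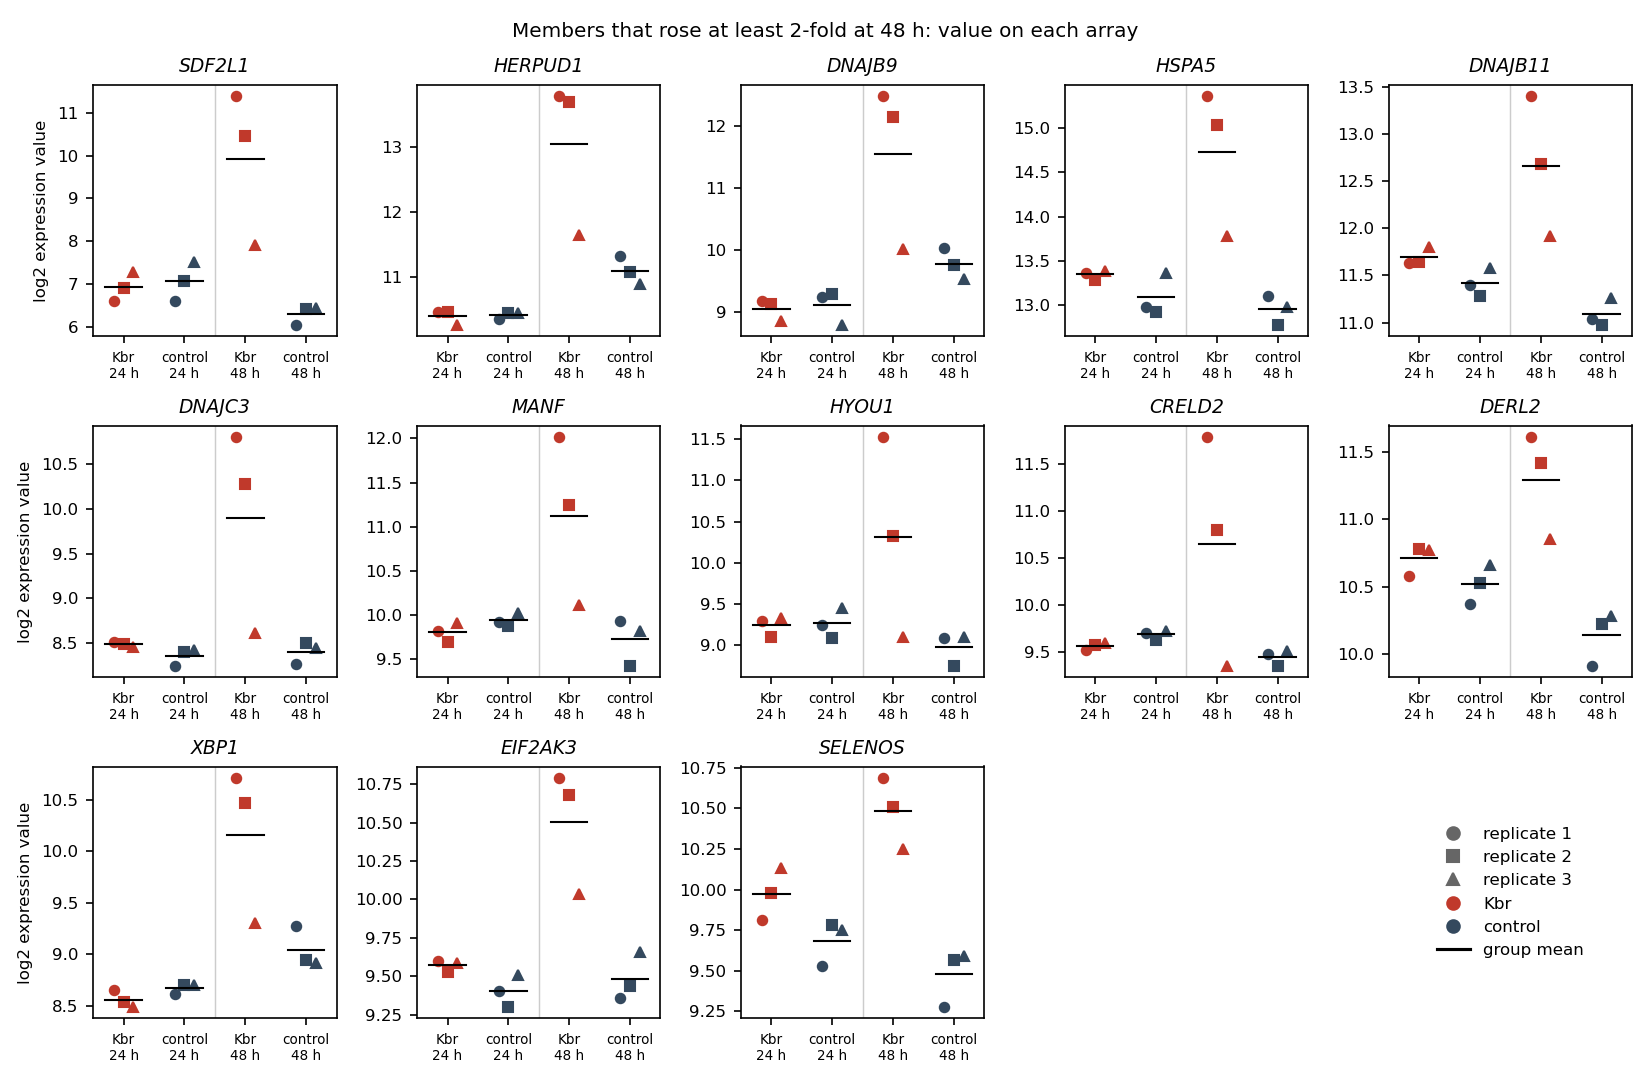
Deposited log2 level of the 13 members that rose at least 2-fold at 48 h, by group (Kbr left of control at each time), each point an array, each bar the group mean and each marker shape a replicate number. At 48 h Kbr replicates 1 and 2 stand apart from the controls while replicate 3 lies closer to them, and at 24 h the Kbr and control means of each gene differ by at most 0.29.

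Among the chaperones, 4 of 5 rose at 48 h (80%, beside 22% of all tested genes). HSPA5 (BiP, the main lumenal HSP70 chaperone, probe set 211936_at) read 15.36, 15.03 and 13.78 in Kbr replicates 1, 2 and 3, against 13.11, 12.78 and 12.98 in the control replicates. All 3 Kbr values lay above all control values, and the third was nearest to them. The HSPA5 log2 change was 1.77 ± 0.32 (SE), a 3.417-fold rise, with a limma adjusted p of 0.00139.
HYOU1 (an HSP110-type chaperone that acts with BiP, 200825_s_at) read 11.53, 10.33 and 9.09 under Kbr, against 9.08, 8.75 and 9.10 in controls. Replicates 1 and 2 were high and replicate 3 lay within the control range, so the groups overlapped. The HYOU1 change was 1.34 ± 0.44 (SE), 2.531-fold, with a limma adjusted p of 0.03132, and leaving out Kbr replicate 1 or 2 or any control replicate at 48 h took its adjusted p to between 0.05696 and 0.08715.
HSP90B1 (GRP94, a lumenal HSP90, read from 216449_x_at, a probe set class that may pick up related transcripts) measured 13.36, 12.73 and 12.17 under Kbr, against 11.75, 11.84 and 11.998 in controls. The groups did not overlap, and the change was 0.89 ± 0.22 (SE; limma adjusted p = 0.008967). CANX (calnexin, the membrane lectin chaperone of glycoproteins) rose by 0.38 ± 0.11 on the log2 scale (limma adjusted p = 0.01774). That call was lost without Kbr replicate 1 (adjusted p = 0.06507), Kbr replicate 2 (0.05923) or control replicate 3 (0.05951) at 48 h. CALR (calreticulin, the soluble lectin chaperone) did not pass the test, with a change of 0.27 ± 0.26 (SE; limma adjusted p = 0.422) and overlapping arrays.

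Of the 7 co-chaperones, 4 rose (57.1%, beside 22% of all tested genes), each at least 2-fold (beside 3.86%). They included the member with the largest change. SDF2L1 (a lumenal partner of ER J-domain proteins, 218681_s_at) read 11.39, 10.45 and 7.92 in Kbr replicates 1, 2 and 3, against 6.04, 6.41 and 6.43 in controls. All Kbr arrays were above all controls, with a span among the Kbr arrays far wider than among the controls (SD 1.8 against 0.217, n = 3 each). The SDF2L1 change was 3.62 ± 0.67 (SE), 12.33-fold, with a limma adjusted p of 0.001645.
DNAJB11 (ERdj3, a J-domain protein that hands clients to BiP, 223054_at) read 13.40, 12.68 and 11.92 under Kbr, against 11.04, 10.98 and 11.26 in controls. The groups did not overlap, and the change of 1.58 ± 0.28 (SE), 2.98-fold, had a limma adjusted p of 0.001381.
DNAJB9 (ERdj4, which targets proteins to BiP and ERAD, 202842_s_at) read 12.48, 12.14 and 10.02 under Kbr, against 10.02, 9.75 and 9.53 in controls. Replicates 1 and 2 stood well above the controls, and replicate 3 was level with control replicate 1. The DNAJB9 change was 1.78 ± 0.49 (SE), 3.432-fold, limma adjusted p 0.0142, and the call was lost without Kbr replicate 1 (0.0532) or 2 (0.05737) at 48 h.
DNAJC3 (p58IPK, a J-domain protein known as an inhibitor of PERK and a BiP partner, 1558080_s_at) read 10.81, 10.28 and 8.61 under Kbr, against 8.27, 8.50 and 8.45 in controls. Replicate 3 lay just above the controls. The DNAJC3 change was 1.49 ± 0.41 (SE), 2.813-fold, limma adjusted p 0.01385, and it did not pass without Kbr replicate 2 at 48 h (0.05333).
The other J-domain proteins and SIL1, a nucleotide exchange factor of BiP, did not pass the limma test. DNAJC10 (ERdj5, a disulfide reductase) had a change of 0.19 (adjusted p = 0.2366), DNAJC1 of -0.05 (0.8797) and SIL1 of -0.16 (0.1636). A second DNAJC10 probe set (229588_at) ran the other way and passed, at -0.53 (limma adjusted p = 0.00877), so that gene has no single direction on these arrays. Values of second probe sets, here and below, come from a fit over every probe set.

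**Figure D3:**
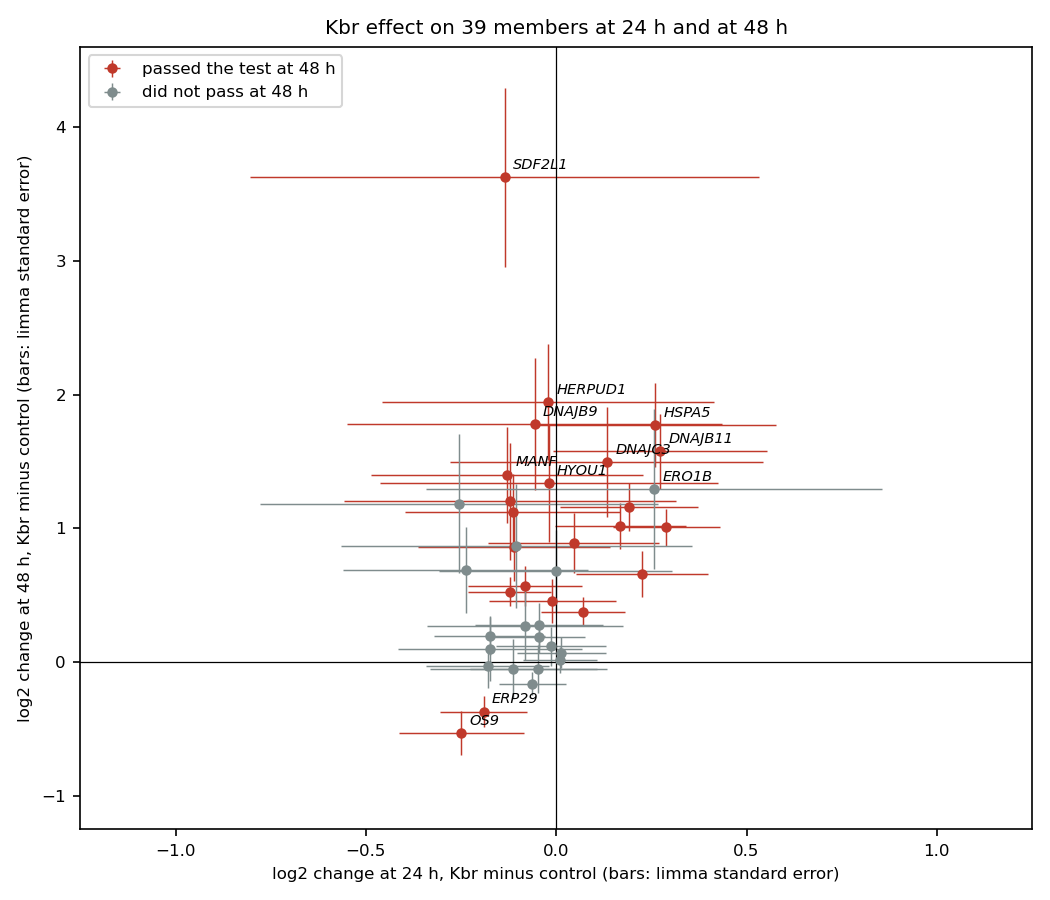
Log2 change of each tested member, Kbr minus control, at 24 h (horizontal axis) and at 48 h (vertical axis), with limma standard errors as bars and members that passed the test at 48 h in red. Changes spread from -0.53 (OS9) to 3.62 (SDF2L1) at 48 h and only from -0.26 (ERN1) to 0.29 (SELENOS) at 24 h.

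Of 11 listed disulfide-forming enzymes and their relatives, 9 were tested: 3 rose (33.3%, beside 22% of all tested genes), none of them 2-fold, 1 fell (11.1%, beside 20.8%) and 5 did not pass. ERO1A (the oxidase that recharges protein disulfide isomerase, 222646_s_at) read 10.86, 10.61 and 10.58 under Kbr, against 10.13, 10.03 and 10.33 in controls, with no overlap. Its change was 0.52 ± 0.11 (SE; limma adjusted p = 0.003151), while its other probe sets read -0.02 and -0.35 and the mean of its probe sets gave 0.05 (adjusted p = 0.7711). TXNDC11 (a thioredoxin-domain ER membrane protein) rose by 0.57 ± 0.15 on the log2 scale (limma adjusted p = 0.01116), with 8.06, 8.004 and 7.86 under Kbr, against 7.10, 7.47 and 7.66 in controls.
ERP44 (which retains ERO1 and unfinished cargo in the early secretory pathway) passed narrowly, with 11.18, 10.65 and 10.35 under Kbr, against 10.25, 10.20 and 10.36 in controls. Kbr replicate 3 lay inside the control range. Its change was 0.46 ± 0.17 (SE; limma adjusted p = 0.04625), and the call held in 1 of 12 fits that each left out an array, that without Kbr replicate 3 at 48 h, with adjusted p up to 0.1258 in the others.
The ERO1A paralog ERO1B showed the widest spread of the enzymes: it read 7.86, 6.00 and 4.56 under Kbr, against 5.08, 4.76 and 4.69 in controls. Replicates 1 and 2 were above every control and replicate 3 below every control, and the change of 1.29 ± 0.60 (SE) did not pass (limma adjusted p = 0.1035). PDIA4 (ERp72, a protein disulfide isomerase) read 12.20, 10.57 and 10.03 under Kbr, against 10.12, 9.70 and 10.38 in controls. Again replicates 1 and 2 were high and replicate 3 lay within the control range, and the change was 0.87 ± 0.46 (SE; limma adjusted p = 0.1538). Without Kbr replicate 3 at 48 h both passed, ERO1B at 2.08 (adjusted p = 0.003535) and PDIA4 at 1.32 (0.03516).
The abundant isomerases PDIA3 (ERp57), PDIA6 and P4HB (the founding protein disulfide isomerase) changed by 0.27, 0.12 and -0.03, with limma adjusted p of 0.2081, 0.5446 and 0.8906. ERP29, a redox-inactive relative of these enzymes that takes part in secretion, fell: it read 12.16, 11.97 and 12.07 under Kbr, against 12.60, 12.28 and 12.43 in controls. All Kbr arrays lay below all controls, with a change of -0.37 ± 0.11 (SE; limma adjusted p = 0.02284). The ERP29 call was lost without Kbr replicate 2 (0.07959) or control replicate 1 (0.08656) at 48 h.

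Both secreted factors rose at least 2-fold, beside 3.86% of all tested genes. MANF, a lumenal and secreted factor that is known to bind BiP (202655_at), read 12.02, 11.25 and 10.12 under Kbr, against 9.93, 9.43 and 9.82 in controls, with all Kbr arrays above all controls. The MANF change was 1.40 ± 0.36 (SE), 2.64-fold, with a limma adjusted p of 0.009449. CRELD2, a secreted protein with disulfide isomerase activity (218358_at), read 11.79, 10.80 and 9.35 under Kbr, against 9.47, 9.35 and 9.51 in controls. Replicates 1 and 2 were high and replicate 3 was level with the lowest control. The CRELD2 change was 1.20 ± 0.44 (SE), 2.298-fold, with a limma adjusted p of 0.04589. It passed in 1 of 12 fits that left out an array, that without Kbr replicate 3 at 48 h, and reached an adjusted p of 0.1389 without Kbr replicate 1.

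In ERAD, 9 of 11 listed genes were tested: 4 rose (44.4%, beside 22% of all tested genes), 1 fell (11.1%, beside 20.8%) and 4 did not pass. HERPUD1 (HERP, a membrane scaffold of the degradation complex, 217168_s_at) read 13.78, 13.69 and 11.65 under Kbr, against 11.33, 11.07 and 10.89 in controls. In HERPUD1 replicates 1 and 2 were nearly equal and replicate 3 stood just above the controls. The HERPUD1 change was 1.94 ± 0.44 (SE), 3.849-fold, with a limma adjusted p of 0.00485.
DERL2 (a derlin of the retrotranslocation channel, 218333_at) read 11.61, 11.42 and 10.85 under Kbr, against 9.91, 10.23 and 10.28 in controls, a change of 1.16 ± 0.18 (SE), 2.23-fold, with a limma adjusted p of 0.0006764. A second DERL2 probe set (226719_at) had a change of -0.21, and the mean of its probe sets did not pass (0.47, adjusted p = 0.2665). SELENOS (VIMP, the membrane selenoprotein that brings the p97 ATPase to derlins, 223209_s_at) read 10.69, 10.51 and 10.25 under Kbr, against 9.28, 9.56 and 9.59 in controls. Its 3 Kbr arrays were close together and clear of the controls, the change was 1.01 ± 0.14 (SE), 2.009-fold, and its limma adjusted p of 0.0003725 was the lowest of the module.
EDEM1, a lectin that speeds the degradation of misfolded glycoproteins, read 9.75, 9.14 and 8.40 under Kbr, against 8.12, 8.25 and 8.36 in controls. Its change was 0.86 ± 0.25 (SE; limma adjusted p = 0.0185), and the call was lost without Kbr replicate 2 (0.05161) or control replicate 1 (0.06046) at 48 h. Its relatives EDEM2 and EDEM3 had changes of 0.10 and -0.05 (limma adjusted p of 0.7774 and 0.8497).
SEL1L, the adaptor of the ERAD ubiquitin ligase, read 12.12, 11.36 and 10.45 under Kbr, against 10.70, 10.66 and 10.53 in controls. Replicate 3 lay below every control, and the change of 0.68 ± 0.31 (SE) did not pass (limma adjusted p = 0.09484). With the replicate number as a block, SEL1L passed at the margin (adjusted p = 0.04958), and its other probe sets had changes of 1.21 (0.01123) and 1.02 (0.02663). DERL1 read 0.02 (limma adjusted p = 0.9054) on the probe set used and 0.31 (0.02094) on another. DERL3, below the filter, read 4.75, 3.75 and 3.73 under Kbr, against 4.07, 3.73 and 3.99 in controls.
OS9, a lumenal lectin that carries misfolded glycoproteins to the ligase, fell. It read 10.04, 9.61 and 9.66 under Kbr, against 10.61, 10.17 and 10.12 in controls, with no overlap and a change of -0.53 ± 0.16 (SE; limma adjusted p = 0.02328). The OS9 call was lost without Kbr replicate 2 (0.08321), Kbr replicate 3 (0.066) or control replicate 1 (0.09046) at 48 h.

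Among the sensors and XBP1, 2 of 4 rose (50%, beside 22% of all tested genes). EIF2AK3 (PERK, the kinase that phosphorylates the translation factor eIF2α, 218696_at) read 10.79, 10.68 and 10.04 under Kbr, against 9.36, 9.43 and 9.66 in controls. The groups did not overlap, and the change was 1.02 ± 0.17 (SE), 2.025-fold, with a limma adjusted p of 0.0009817. XBP1 (200670_at) read 10.71, 10.46 and 9.30 under Kbr, against 9.27, 8.94 and 8.91 in controls, with the third Kbr array only just above the highest control. The XBP1 change was 1.12 ± 0.28 (SE), 2.173-fold, with a limma adjusted p of 0.008973, while a second probe set (242021_at) had a change of -0.38 and the mean of its probe sets did not pass (0.37, adjusted p = 0.1766). The arrays do not separate spliced from unspliced XBP1 mRNA.
ERN1 (IRE1) read 9.71, 9.50 and 7.29 under Kbr, against 8.22, 7.55 and 7.18 in controls. Replicates 1 and 2 were above every control and replicate 3 within their range, and the change of 1.18 ± 0.52 (SE) did not pass (limma adjusted p = 0.08931), whereas without Kbr replicate 3 at 48 h it was 1.96 (adjusted p = 0.0005). ATF6 had a change of 0.20 ± 0.15 (SE; limma adjusted p = 0.3029). All its other probe sets ran the other way, at -0.51, -0.61 and -0.56. Of these, 226941_at passed (-0.61, limma adjusted p = 0.04479). In the translocon and vesicle coat, SEC61A1, the channel subunit, rose: 12.03, 11.55 and 11.54 under Kbr, against 10.90, 10.91 and 11.34 in controls, a change of 0.66 ± 0.17 (SE; limma adjusted p = 0.01107). SEC61B, a small channel subunit, had a change of 0.07 (limma adjusted p = 0.6654), and SEC24D, a cargo-binding coat subunit, of 0.69 ± 0.32 (SE; 0.1067), with 10.07, 9.05 and 8.55 under Kbr, against 8.28, 8.69 and 8.63 in controls.

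The rises at 48 h were unequal among the 3 Kbr cultures in the same order for every member that rose. In 20 of 20, replicate 1 was the highest and replicate 3 the lowest of the Kbr arrays, where this order held in 30.9% of the 2351 genes that rose in the whole table and in 44.2% of the 412 that rose at least 2-fold. The order was not particular to the module. Counted whether or not a gene rose, it held in 34 of the 39 members tested (87.2%) and in 22.6% of all genes tested. In the integrated stress response list, described below, it held in 9 of 11 (81.8%). Kbr replicates 1 and 2 lay above all 3 controls in 20 of 20 members. Replicate 3 did not in 4, HYOU1, DNAJB9, ERP44 and CRELD2 (20%, against 3.02% of all genes that rose). The 20 were picked by their rise on these same arrays, which favours Kbr values above the controls. The share with replicates 1 and 2 above the controls was not counted over all genes. No test was made of these shares.
Within pairs of the same replicate number, the median log2 difference, Kbr minus control, of the 20 members was 1.67, 1.35 and 0.27 in pairs 1, 2 and 3. Over all genes that rose it was 0.73, 0.65 and 0.51. For the 13 members with at least a 2-fold rise the medians were 2.32, 1.70 and 0.49, against 1.48, 1.34 and 0.99 for all 412 genes of that size. The members' medians were above those of the wider sets in pairs 1 and 2 and below them in pair 3. The medians of all genes that fell were -0.82, -0.74 and -0.69.
Over all 39 members tested, 37, 33 and 18 were above 0 in pairs 1, 2 and 3, with medians of 1.41, 0.64 and -0.0033. SDF2L1 spanned 5.35, 4.04 and 1.49 over the pairs, HSPA5 2.26, 2.25 and 0.81, and HERPUD1 2.46, 2.61 and 0.76. SELENOS was the most even of the large rises, at 1.41, 0.95 and 0.66. ERP29 (-0.44, -0.31 and -0.36) and OS9 (-0.57, -0.56 and -0.47) fell by like amounts in the 3 pairs.

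**Figure D4:**
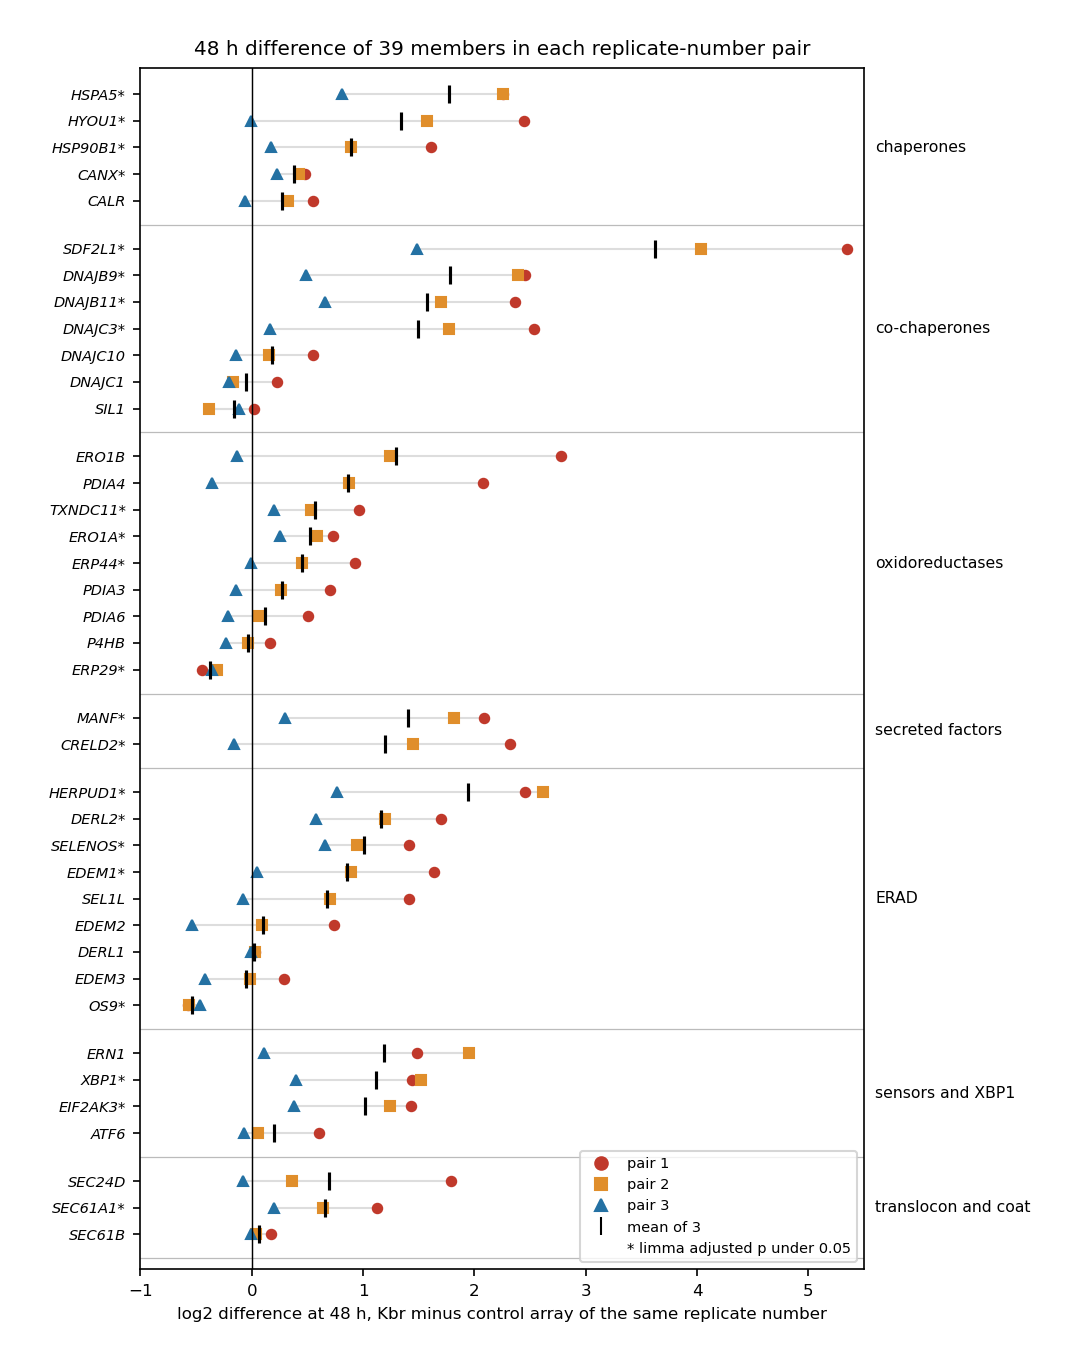
Log2 difference, Kbr minus control, of each tested member within the 3 replicate-number pairs at 48 h, grouped by role, with a black tick at the mean of the pairs and an asterisk for limma adjusted p under 0.05. For the members that rose, pair 3 lies lowest throughout, from -0.16 (CRELD2) to 1.49 (SDF2L1).

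The Kbr arrays were accordingly spread. The median SD of the 13 members was 0.956 among Kbr arrays and 0.197 among control arrays at 48 h, and 0.106 among Kbr arrays and 0.139 among control arrays at 24 h (n = 3 arrays each). For all 412 genes with at least a 2-fold rise the median SD was 0.271 among Kbr arrays and 0.243 among controls at 48 h. Kbr replicate 3 at 48 h had the lowest mean correlation with its own group of the 12 arrays, 0.9846 (0.9861 to 0.9926 for the others), and the lowest share of probe sets above log2 4, 39.95% (40.06% to 40.42%). Its ACTB 3′ to 5′ log2 difference of 0.779 lay within the range of the other arrays (0.674 to 1.07), as did that of GAPDH, -0.15 (-0.17 to -0.05). The part of these measures in the results was not tested. Without this array, 27 members rose at 48 h: the 20 named and DNAJC10, PDIA4, ERO1B, SEL1L, ATF6, ERN1 and SEC24D. Over all 12 arrays, a DNAJC10 probe set and the other ATF6 probe sets ran the other way. Without Kbr replicate 1, 15 rose, and without Kbr replicate 2, 13. All genes called higher were 21.6%, 18.6% and 17.8% in these fits.

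**Figure D5:**
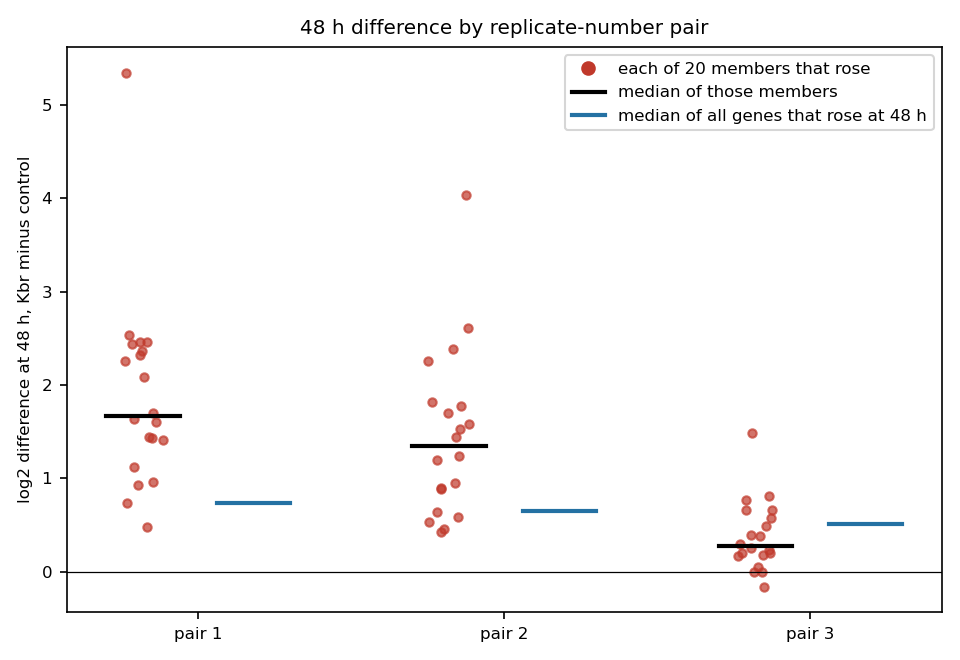
Median log2 difference, Kbr minus control, at 48 h in each replicate-number pair, for the 20 members that rose (black bars, over red points for each member) and for all genes that rose (blue bars). The members that rose had medians of 1.67 in pair 1 and 0.27 in pair 3, and all genes that rose 0.73 and 0.51.

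At 24 h no member passed the test in either direction, where 2.48% of all tested genes were higher and 3.25% lower in Kbr cells (limma). Rises and falls of at least 2-fold that passed were thus 0 and 0, beside 0.206% and 0.863% of all genes. At an unadjusted p under 0.05 the counts were also 0 and 0, against 11% and 12.8% of all genes. The changes ran from -0.26 for ERN1 to 0.29 for SELENOS, with a median of -0.05, and the lowest limma adjusted p was 0.2409, for SELENOS. Kbr arrays lay above all controls in 4 members, DNAJB11, DNAJC3, SELENOS and EIF2AK3, and below them in 2, CRELD2 and ATF6, where 15.9% of all genes lay above and 15.9% below. HSPA5 read 13.37, 13.29 and 13.39 under Kbr, against 12.97, 12.93 and 13.36 in controls at 24 h. SDF2L1 read 6.60, 6.90 and 7.28 under Kbr, against 6.61, 7.06 and 7.52. In both genes the groups overlapped. With the replicate number as a block, 1 member passed at 24 h: OS9, with a change of -0.25, fell (limma adjusted p = 0.03207), where that fit called 10.4% of all genes higher and 14% lower.

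A test of whether the effect at 48 h differed from that at 24 h called 0 members in either direction (limma), where 0.0656% of all genes were called higher and 0.075% lower. At an unadjusted p under 0.05, 15 members had a larger effect at 48 h and 0 a smaller one, against 9.16% and 6.92% of all genes. The median difference was 0.68, and 35 of 39 were above 0. The lowest limma adjusted p was 0.1135, for ERO1A, which passed with the replicate block, where 3.41% of all genes were called higher. The difference was 1.51 for HSPA5 (0.1652) and 3.76 for SDF2L1 (0.1268). Without Kbr replicate 3 at 48 h, 18 members were called higher and 0 lower, where 2.95% of all genes were called higher and 1.54% lower: HSPA5, HSP90B1, HYOU1, SDF2L1, DNAJB9, DNAJB11, DNAJC3, ERO1A, CRELD2, MANF, HERPUD1, SEL1L, DERL2, EDEM1, SELENOS, XBP1, ERN1 and EIF2AK3.

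Along the time course of the vehicle cells, 0 members passed from 24 h to 48 h (limma; 1.42% of all genes were higher and 1.88% lower at 48 h). At an unadjusted p under 0.05 the counts were 0 higher and 1 lower, beside 9.25% and 12.2% of all genes. Control levels nevertheless moved by up to 1.06 for ERN1 (limma adjusted p = 0.2727), 0.68 for HERPUD1 and 0.66 for DNAJB9, and by -0.77 for SDF2L1. Without Kbr replicate 3 at 48 h HERPUD1 and ERN1 were called.
Under Kbr, 11 members rose between 24 h and 48 h (28.2%, against 5.6% of all genes) and 0 fell (against 5.04%), 7 of them at least 2-fold (limma). They were HSPA5, SDF2L1, DNAJB9, TXNDC11, MANF, HERPUD1, EDEM1, SELENOS, XBP1, ERN1 and EIF2AK3. ERN1 read 6.54, 6.19 and 6.28 at 24 h and 9.71, 9.50 and 7.29 at 48 h under Kbr. Its change of 2.50 (limma adjusted p = 0.01635) was beside 1.06 in the vehicle cells. With the replicate block 18 members rose under Kbr, beside 14.2% of all genes. Leaving out single arrays gave from 2 (without Kbr replicate 2 at 48 h, beside 1.16% of all genes) to 24 (without Kbr replicate 3 at 48 h, beside 11.1%).

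Genes of the same pathways outside the module were read from 7 lists of 89 genes, 83 of them tested. These lists too were chosen with earlier results of these data known. At 48 h, 25 rose and 15 fell (limma), beside 22% and 20.8% of all genes. Of 12 other ERAD genes, 8 rose and 0 fell (median log2 change 0.50), among them UBE2J1, an ERAD ubiquitin-conjugating enzyme (1.15), SELENOK, an ER membrane selenoprotein (1.13), and UFD1, a p97 cofactor (0.73). Of 11 genes of the integrated stress response, the programme downstream of eIF2α phosphorylation, 9 rose and 0 fell (median 1.22). The transcription factors ATF3 and DDIT3 (CHOP) rose by 4.51 and 2.84 and CHAC1, a glutathione-degrading enzyme, by 1.86 on the log2 scale, with limma adjusted p of 0.00122, 0.00362 and 0.0186. CHAC1 read 7.31, 7.18 and 6.83 under Kbr, against 6.96, 4.58 and 4.21 in controls, so its groups overlapped. In DDIT3, Kbr replicate 3 (10.99) was nearly level with control replicate 1 (10.91). The pair differences of that list had medians of 1.15, 1.82 and 0.66 in pairs 1, 2 and 3.
Of the 8 listed genes of glycoprotein quality control, a list that does not hold CANX or EDEM1, 0 rose and 5 fell (median -0.40). MAN1B1, an ER mannosidase, changed by -0.60, GANAB, a glucosidase II subunit, by -0.57, and UGGT1, the glucosyltransferase that tests folding, by -0.49. The other folding enzymes split, 3 rising and 4 falling of 14, with falls in the prolyl isomerases FKBP10 (-1.21) and FKBP7 (-0.86) and in TMX4, a thioredoxin-like membrane protein (-0.86).
Translocation, signal peptidase and oligosaccharyl transferase genes were mostly uncalled, 2 rising and 3 falling of 20, with SPCS3, a signal peptidase subunit, at -1.19, SRPRB, a signal recognition particle receptor subunit, at 0.40 and SSR1, a translocon-associated protein, at 0.31. Among ER-Golgi transport genes 2 of 13 rose and 2 fell: KDELR3, a retrieval receptor of ER proteins, changed by -1.44 (limma adjusted p = 2.9e-05), SAR1B, a coat GTPase, by 0.74 and SEC24B, a coat subunit, by 0.54. Of 5 UPR proteases and ATF6 relatives, CREB3, a membrane-bound transcription factor, rose (0.66) and MBTPS1, the Golgi protease that cuts ATF6, fell (-0.62). At 24 h 1 of the 83 genes rose and 1 fell, beside 2.48% and 3.25% of all genes (limma). The difference between the times called 0 of them in either direction, beside 0.0656% and 0.075%. With the replicate block, 5 of the 83 rose and 12 fell at 24 h, beside 10.4% and 14% of all genes. Of these falls, 5 were among the 8 glycoprotein quality control genes. For the difference between the times the block called 1 higher and 3 lower, beside 3.41% and 3.95% of all genes.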

How the data were processed

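Values were log2 expression levels of 54675 probe sets on 12 arrays, deposited by the authors on a GCRMA scale per the submitters' processing notes. GCRMA models background by probe base content, applies quantile normalization and combines the probes of a set. Its settings are not stated in the labels. Its values fall to a floor for weak probe sets, so folds near log2 4 depend on that model.

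Exactly 1 symbol was annotated to 41091 probe sets. Another 1801 had more than 1, 11721 lacked a symbol and 62 were array controls. The probe set with the highest mean over the 12 arrays stood for a gene. Genes above log2 4 on at least 3 arrays were tested: 10665 of 19775. Group means of all 12 arrays were fitted with limma 3.58.1 in R 4.3.3, and p-values were adjusted by Benjamini-Hochberg over all genes tested, with a threshold of 0.05. The fit was run on simulated data with the same SD in every group and no replicate effect. That setting lacks the wider Kbr spread at 48 h and the pairing of replicate numbers given below, so it cannot speak for them. Replicates are biological per the labels; separate thaws or donors are not stated.

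Replicate numbers were checked for pairing: deviations from group means had correlations of 0.279 to 0.701 for the 18 same-number pairs of arrays and of -0.454 to -0.0613 for the 36 others, and every one of the 12 arrays matched best with its own number. The block of replicate number was an alternative, beside other filters, normalizations, probe set rules, variance settings (statmod 1.5.0 for array weights) and leaving out each array.

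The members and lists were chosen with earlier results of these data known. All members are named, with values on every 48 h array for those that passed with at least a 2-fold change and for others that show the spread. Of each other list, at most the 3 largest called changes at 48 h are named. Sequences came from RefSeq (GRCh38.p14). C-terminal retrieval signals and thioredoxin motifs of the proteins were not analysed here.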

Additional observations from a re-analysis of the deposited data

How the results depend on the processing

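The median log2 change of the members at 48 h stayed between 0.44 and 1.03 when each array was left out and between 0.51 and 0.68 under the other alternatives. Over 818 repeated values of single members, 719 kept their direction and their side of the threshold, 64 kept the direction but no longer passed, 16 kept it and newly passed and 19 changed direction. None of those 19 passed the test in either fit. With array weights the log2 change of DNAJC1 became 0.0813, DERL1 -0.0135, EDEM2 -0.0713, EDEM3 0.0297 and SEC61B -0.0146. Averaging a gene's probe sets gave -0.3716 for ATF6 and 0.0167 for EDEM3, and repeated quantile normalization -0.0424 for DERL1. With each array left out, DNAJC1 ranged from -0.1931 to 0.1699, PDIA6 from -0.0578 to 0.2761, P4HB from -0.2018 to 0.0527, DERL1 from -0.0379 to 0.0868, EDEM2 from -0.2439 to 0.2893 and EDEM3 from -0.1859 to 0.1457. Of the 22 members called at 48 h, 13 were called in every fit that left out an array and 8 under every setting. Of the 17 not called, 9 were called under some setting.

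The 20 rises at 48 h became 10 with only the 2 groups compared and 35 calls with every probe set by itself, and ranged from 13 (without Kbr replicate 2) to 27 (without Kbr replicate 3) when an array was left out. The 2 falls became 1 with no filter, 0 with only the groups compared and 5 with every probe set by itself, and 0 to 2 with an array left out. At 24 h the replicate block gave 1 fall. For the difference between times, the block gave 1 member (beside 3.41% of all genes called higher) and array weights gave 10 (beside 1.76%). Leaving out arrays gave 0 to 18, the 18 without Kbr replicate 3 at 48 h (beside 2.95%). For vehicle cells over time, leaving out arrays gave 0 to 2 rises, the 2 without Kbr replicate 3 at 48 h (beside 1.65% of all genes). The 11 rises under Kbr over time (beside 5.6% of all genes) became 18 with the block (14.2%) and 22 with array weights (15.7%). They became 4 with no filter (1.91%) and 0 with only the groups compared (0.872%). Leaving out an array gave 2 (1.16%) to 24 (11.1%), and every probe set by itself gave 1 fall. For the 83 other genes at 48 h, the 25 rises became 48 and the 15 falls 28 with every probe set by itself, the falls became 9 with only the groups compared, and leaving out arrays gave 19 to 30 rises and 9 to 16 falls. With only the groups compared at 48 h, 16.7% of all genes were called higher and 16.8% lower, beside 22% and 20.8% in the main fit. Such a fit has fewer residual degrees of freedom and takes no spread from the other groups. More tests are made with every probe set or no filter, and the share called over every probe set was not counted. The part of these differences in the counts was not tested. At 48 h the replicate block changed the call of SEL1L and of no other member. It called 28.7% of all genes higher and 28.8% lower, beside 22% and 20.8% in the main fit.

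Among 43 further probe sets of 23 members, 33 had the sign of the one used and 10 the opposite sign, 2 of them called. Signal near the background limits DERL3 and ERO1B. Arrays left out 1 at a time leave 2 in that group, which shares the spread of the others.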
